A study of Arabidopsis thaliana with 13 samples.

Results

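Cytochrome P450 enzymes were described through 22 probe sets of the Affymetrix ATH1 array, out of 22746 that were not controls. Each is annotated to exactly 1 gene whose symbol reads CYP, a family number, a subfamily letter and a member number. Of these, 18 belong to a single subfamily, CYP71B, and the others are CYP78A9, CYP79A2, CYP84A4 and CYP51G2. By family, 21 fall in clan CYP71 and 1, CYP51G2, in clan CYP51, so the set is mainly a view of CYP71B. A gene table of Arabidopsis thaliana holds 225 genes with such symbols. The 203 that are not among the 22 were not described here, apart from CYP71B19, CYP71B20 and CYP79C2, whose shared probe sets are given at the end.

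Plant P450 enzymes are haem proteins, mostly anchored in the endoplasmic reticulum, that insert an oxygen atom into a substrate with electrons passed on from NADPH by a reductase. They act in the synthesis and breakdown of hormones, phenylpropanoids, sterols, glucosinolates and other defence compounds, and many lie in tandem arrays of recent gene copies. ANAC092 and ANAC059 are NAC transcription factors with related sequences, and both are known to advance leaf senescence in Arabidopsis. No probe set was named for either of them, so the induced and disrupted genes themselves were not examined.

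Transgenic seedlings in the Col-0 background were treated at 3 weeks of age. They carried a system switched on by estradiol that overexpresses ANAC092 (3 arrays) or ANAC059 (2 arrays), or the same system with no gene in it, called the empty vector. Every group, controls included, was exposed to 10 µM estradiol for 5 h and shoots were then collected, so an effect of estradiol itself is common to all seedling groups. The sources used here do not say how many independent lines each construct stands for. The ANAC092 arrays were normalized with 3 empty vector arrays and the ANAC059 arrays with 2. From plants grown in soil for 38 days, leaf 11 was sampled in Col-0 wild type and in T-DNA lines disrupted in ANAC059 or ANAC092, with 1 array each. Both inductions share control plants, since the difference of empty vector replicate 1 to replicate 2 in one normalization correlated at 0.883 with that in the other. Values are log2 signals, compared only within a normalization and only for the same probe set. Shoots and leaves hold many cell types, and fewer cells of a type cannot be told apart from less RNA per cell.

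Of 14 markers of green tissue, 5 had a named probe set. RCA, the Rubisco activase gene, lay at 12.12 to 12.95 on the seedling arrays and at 13.58 on each leaf array. In the same order PRK lay at 9.22 to 10.26 and 12.26 to 12.35, and psbA at 9.39 to 10.91 and 10.86 to 11.04. PORB lay at 10.57 to 11.21 and 9.87 to 9.91, and rbcL at 7.84 to 8.996 and 8.44 to 8.56. The root hair gene EXPA7, the 1 measured of 8 root markers, lay at 6.27 to 6.95 and 5.09 to 5.39 in that order. Seedling and leaf arrays were normalized separately, so these levels are not compared between them. No flower marker of 6 had a named probe set. The unlogged signals of the 5 green markers were also summed. RCA was the brightest of them on every array and weighs most in the sum. The log2 of this sum was 13.10 to 13.51 on the controls and 13.09 to 13.22 on the induced arrays of the ANAC092 set. In the ANAC059 set it was 13.15 to 13.26 and 13.57 to 13.62. Of the 5 green markers, 1 passed in each induction, against 2.23% of all probe sets after ANAC092 and 2.99% after ANAC059 induction. RCA rose by 0.63 after ANAC059 induction (limma adjusted p = 0.0251) and rbcL by 0.75 after ANAC092 induction (limma adjusted p = 0.0416). The others went in both directions. After ANAC092 induction psbA was at 0.73, RCA at -0.15, PORB at -0.42 and PRK at -0.65. After ANAC059 induction rbcL was at 0.27, psbA at 0.23, PRK at 0.07 and PORB at -0.03. The part of these markers in the results below was not tested.

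Within the ANAC092 set, empty vector replicate 3 and induced replicate 2 stood apart. The SD of the difference to the other arrays of the same group was 0.351 and 0.386 for the former and 0.343 and 0.364 for the latter, against 0.178 and 0.129 between the remaining pairs. The count of P450 calls is therefore given without each of them.

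The chromosome order of the gene table places 11 CYP71B members in an array on chromosome 3. From CYP71B16 (AT3G26150) to CYP71B37 (AT3G26330) it lists 20 protein-coding genes, 16 of them with a CYP71B name. CYP71B21 (AT3G26190), CYP71B22 (AT3G26200) and CYP71B23 (AT3G26210) are direct neighbours, and so are CYP71B26, CYP71B34, CYP71B35, CYP71B36 and CYP71B37. CYP71B28 and CYP71B29 are neighbours on chromosome 1. The gene table lists CYP71B27 and CYP51G2 as transcribed pseudogenes. Probe sequences were not examined, so a signal shared by near-identical copies cannot be told apart here.

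Most of these probe sets were dim. In each induction set only CYP71B6, CYP71B22, CYP71B23 and CYP71B26, 4 of 22, had a mean at or above the median of all probe sets, against 50% of all of them by construction. Without detection calls a dim value is not shown to be transcript of that gene.

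After ANAC059 induction CYP71B22 and CYP71B24 fell, and no P450 probe set rose past the threshold of 0.05 on the adjusted p. Called probe sets made up 2.99% of the array (1.34% lower, 1.65% higher), and 2 of 22 P450 probe sets were called, 9.09%. Both genes lie in the chromosome 3 array, on either side of CYP71B23.

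CYP71B24 (AT3G26230) read 6.93 and 6.76 on the empty vector arrays and 6.13 and 6.04 on the ANAC059 induced arrays. Both induced arrays lay well below both controls, by more than the arrays of a group differed. The fall was 1.69-fold (log2 -0.76 ± 0.10 SE, n = 2 per group, limma adjusted p = 0.0155). When each of the 4 arrays was left out in turn it passed 2 times, with adjusted p from 0.0299 to 0.0896 in limma. The 2 that missed lacked empty vector replicate 1 (0.0896) or induced replicate 2 (0.0518).

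CYP71B22 (AT3G26200) read 9.95 and 10.04 on the empty vector arrays and 9.37 and 9.40 on the induced arrays. Both induced arrays were again below both controls, and the arrays of each group lay close together. The fall was 1.52-fold (log2 -0.61 ± 0.09 SE, n = 2 per group, limma adjusted p = 0.0205). The change stayed between -0.65 and -0.56 when single arrays were left out, but it passed in 0 of these 4 fits (adjusted p 0.0619 to 0.0881).

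Empty vector replicate 3, which was no control of this comparison, can be set beside replicates 1 and 2 in the ANAC092 set. There it lay 0.12 above their mean for CYP71B22 and 0.20 below it for CYP71B24. For CYP71B24 this displacement had the direction of the fall, and for CYP71B22 the opposite direction. Empty vector replicate 3 stood apart within its group, as given above. Its displacement comes from another normalization than the falls, so their sizes are not compared.

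**Figure D1:**
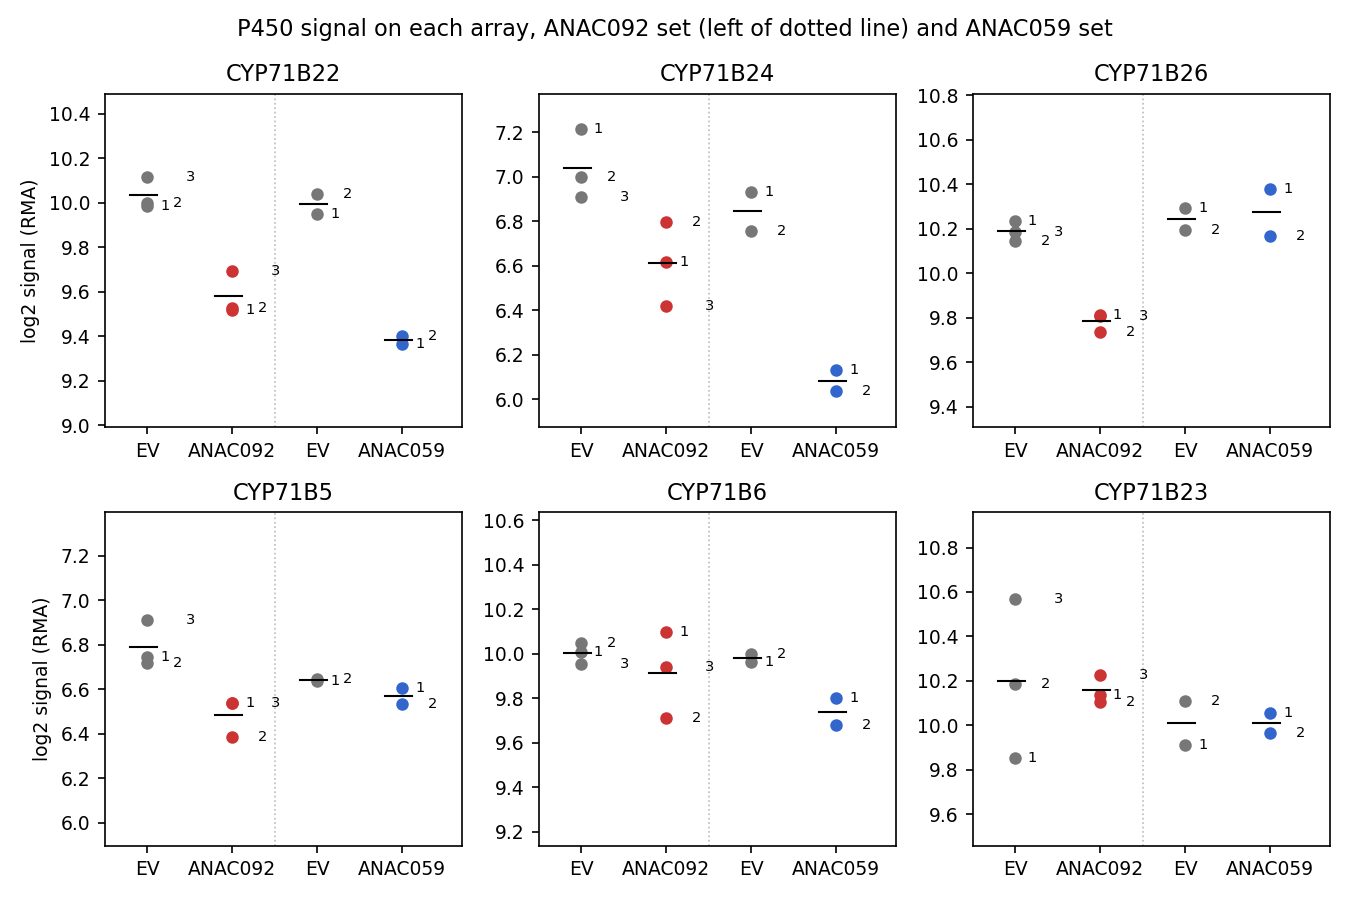
Log2 RMA signal of 6 CYP71B genes on each array (points, numbered by replicate) with group means (bars); arrays left of the dotted line belong to the ANAC092 set and arrays right of it to the ANAC059 set, EV is the empty vector, and each panel spans the same height on the log2 scale. CYP71B22 and CYP71B24 lie lower on the induced arrays of both sets, CYP71B26 lies lower on the ANAC092 induced arrays (mean 9.78 against 10.19) and not on the ANAC059 ones (10.27 against 10.24), and CYP71B23 overlaps its controls in both.

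CYP71B23, between those genes in the array, read 9.91 and 10.11 on the empty vector arrays and 10.05 and 9.97 on the ANAC059 induced arrays. The groups overlapped and the change was 0.00 (95% interval -0.24 to 0.24). CYP71B21, next to CYP71B22, had groups that did not overlap but did not pass. Whether neighbouring genes changed differently was not tested.

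CYP71B6, an Arabidopsis enzyme known to convert indole-3-acetonitrile on the way to indole-3-carboxylic acid, read 9.97 and 10.00 on the empty vector arrays and 9.80 and 9.68 on the ANAC059 induced arrays. Its induced arrays were below both controls, and the change of -0.24 ± 0.09 SE did not pass (limma adjusted p = 0.206, 95% interval -0.46 to -0.03). CYP71B16 was at -0.19 (limma adjusted p = 0.342). CYP79A2, which turns phenylalanine into the oxime precursor of benzylglucosinolate, was also at -0.19 (limma adjusted p = 0.392). The interval of CYP71B6 lay below 0, and it missed the threshold only after adjustment over all probe sets.

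In all, the induced arrays lay below both controls for 10 of 22 P450 probe sets and above both for 0, against 26.8% and 26.2% of all probe sets (53% in either direction). The change was below 0 for 18 of 22, against 52.4% of all, and its median was -0.10, against -0.01 over all probe sets. Most dim probe sets of the array also had a change below 0. Among probe sets below the set median, 15 of 18 P450 probe sets were below 0, against 70.4% of all, and 8 of 18 had induced arrays below both controls, against 36.4%. The median change of these 18 was -0.096, against -0.076 over all dim probe sets, so the lean of these 18 was close to that of dim probe sets in general. The 1 called among them, CYP71B24, stands against 0.475% of dim probe sets called lower. Of the 4 P450 probe sets at or above the set median, 3 were below 0, against 34.4% of all such probe sets. CYP71B23, among these 3, was only at -0.0014. The median of the 4 was -0.12, against 0.066 over all such probe sets. With quantile normalization applied once more, 15 of the 22 were below 0, against 49.0% of all probe sets, and the median was -0.030, against 0.0033 over all. The 20 P450 probe sets that did not pass had changes from -0.24 to 0.14, and their 95% intervals reached from -0.47 to 0.43. At an unadjusted p under 0.05 there were 3, all lower (CYP71B6, CYP71B22 and CYP71B24), 13.6% against 9.38% of all probe sets lower and 20.4% in either direction.

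After ANAC092 induction no P450 probe set passed the threshold in limma, with 507 of 22746 probe sets called, 2.23% (0.831% lower and 1.4% higher). At an unadjusted p under 0.05 there were 4, all lower and 18.2% of the 22, against 6.7% of all probe sets lower and 12% in either direction. These were CYP71B5, CYP71B22, CYP71B24 and CYP71B26, and the same 4 were the members whose groups did not overlap, against 12.4% of all probe sets with induced arrays below all controls and 20.4% in either direction. The induced arrays lay above all controls for 0 of 22, against 7.98%. Leaving out any single array also gave 0 P450 calls, as did using only empty vector replicate 3 as control or averaging induced replicates 1 and 3.

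CYP71B22 read 9.98, 10.00 and 10.12 on empty vector replicates 1, 2 and 3 and 9.52, 9.53 and 9.69 on ANAC092 induced replicates 1, 2 and 3. The induced arrays were all lower than every control. The change was -0.45 ± 0.10 SE (n = 3 per group, limma adjusted p = 0.0809, 95% interval -0.69 to -0.22). It was -0.41 without empty vector replicate 3, -0.43 without induced replicate 2 and -0.54 against empty vector replicate 3 alone. With quantile normalization applied once more it passed (-0.47, limma adjusted p = 0.0457).

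CYP71B26 (AT3G26290) read 10.24, 10.15 and 10.19 on the empty vector arrays and 9.81, 9.74 and 9.81 on the ANAC092 induced arrays. Both groups were tight and did not overlap. The change was -0.40 ± 0.09 SE (limma adjusted p = 0.0821, 95% interval -0.62 to -0.19), and it stayed between -0.43 and -0.38 when single arrays were left out. After ANAC059 induction the same gene read 10.29 and 10.20 on the controls and 10.38 and 10.17 on the induced arrays, with overlapping groups. The change there was 0.03 (95% interval -0.22 to 0.28). Since the inductions were normalized separately and share controls, the difference between them was not tested.

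CYP71B24 read 7.21, 6.998 and 6.91 on the empty vector arrays and 6.62, 6.80 and 6.42 on the ANAC092 induced arrays. The highest induced value lay just under the lowest control value. The change was -0.43 ± 0.14 SE (limma adjusted p = 0.233). CYP71B5 (AT3G53280) read 6.75, 6.72 and 6.91 on the empty vector arrays and 6.54, 6.38 and 6.54 on the induced arrays. It too was lower on every induced array, with a change of -0.30 ± 0.10 SE (limma adjusted p = 0.278), and after ANAC059 induction it was at -0.07.

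**Figure D2:**
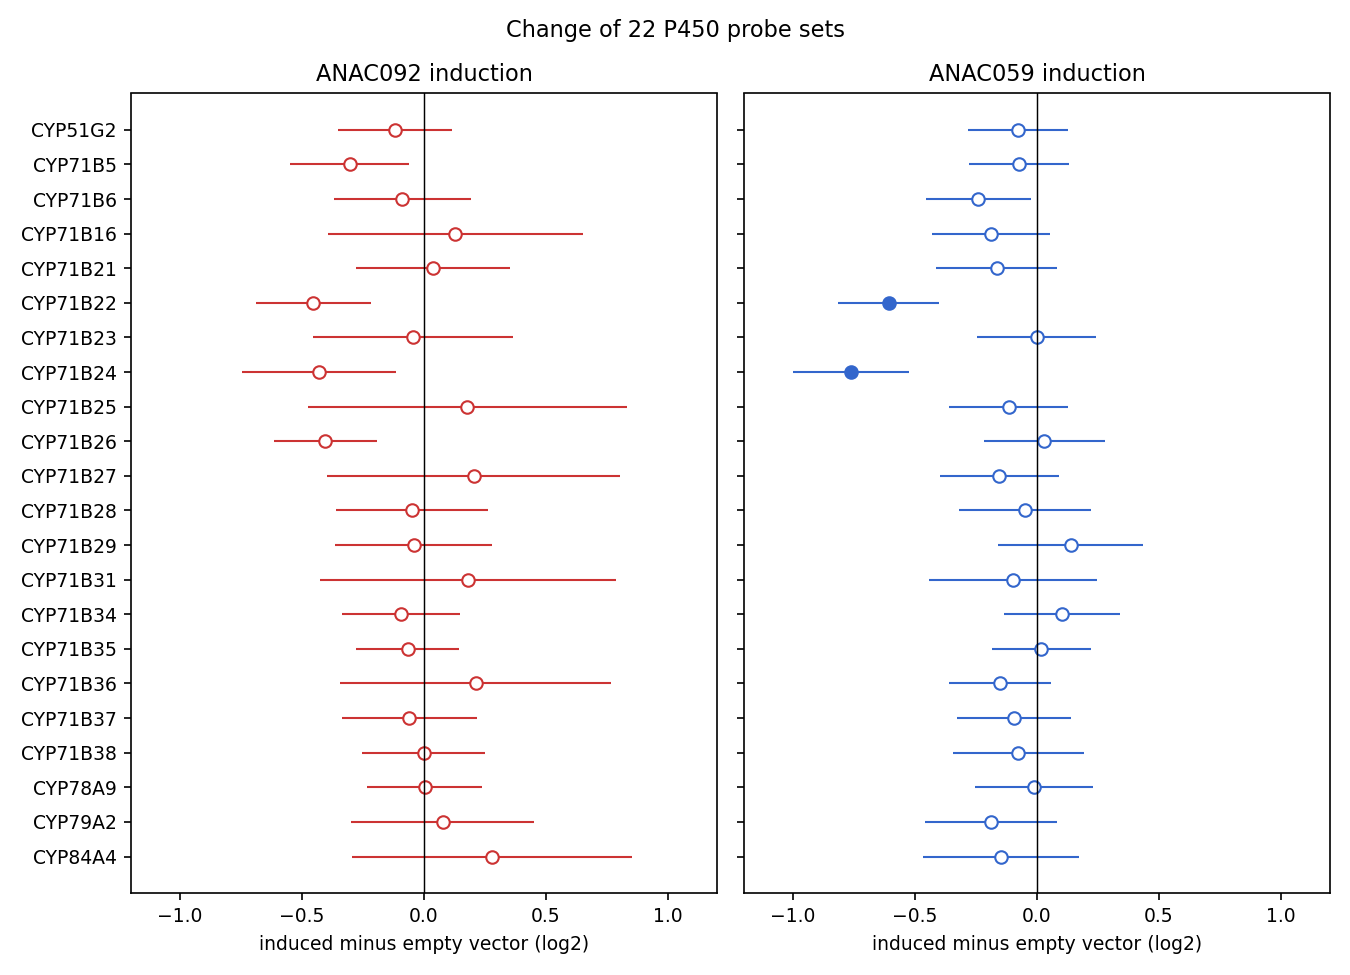
Difference between induced and empty vector arrays on the log2 scale for the 22 P450 probe sets (points) with the 95% confidence interval of limma (lines), after ANAC092 induction (left, 3 against 3 arrays) and ANAC059 induction (right, 2 against 2); filled points passed an adjusted p of 0.05 over all probe sets. Only CYP71B22 and CYP71B24 after ANAC059 induction are filled, and the intervals of CYP71B25, CYP71B27, CYP71B31, CYP71B36 and CYP84A4 on the left are wide.

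The width of several intervals in the ANAC092 comparison came with induced replicate 2. That array was the highest of the 6 for 9 of the 18 dim P450 probe sets, against 35.9% of all dim probe sets. For these 9 it lay 0.19 to 1.07 above the mean of induced replicates 1 and 3. They were CYP71B16, CYP71B21, CYP71B25, CYP71B27, CYP71B31, CYP71B36, CYP71B38, CYP79A2 and CYP84A4. For 8 others the same array was the lowest of the 6, at -0.41 to -0.03 relative to that mean (CYP51G2, CYP71B5, CYP71B6, CYP71B26, CYP71B28, CYP71B29, CYP71B34 and CYP78A9). The matching share over all probe sets is not given here. CYP71B31 is an enzyme known to oxidise linalool in Arabidopsis flowers.

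CYP84A4, which takes part in arabidopyrone synthesis in Arabidopsis, showed this pattern. It read 6.65, 6.91 and 6.65 on the empty vector arrays and 6.72, 7.63 and 6.71 on the ANAC092 induced arrays. Induced replicates 1 and 3 lay among the controls and replicate 2 alone stood above them. The change of 0.28 ± 0.25 SE (limma adjusted p = 0.722) became -0.03 without replicate 2. CYP71B16 likewise went from 0.13 to -0.14, and CYP79A2 from 0.08 to -0.10.

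**Figure D3:**
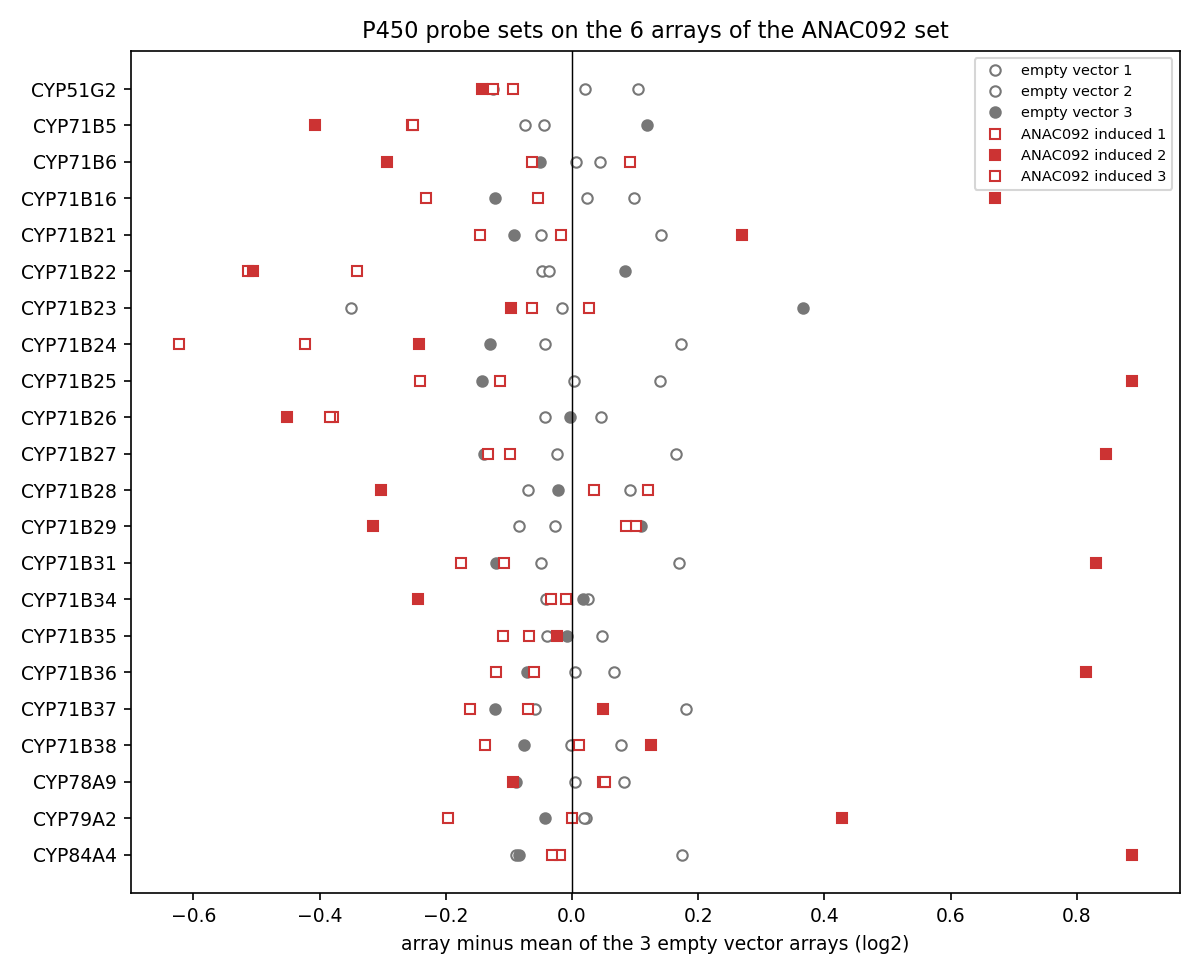
Each of the 6 arrays of the ANAC092 set (grey circles, empty vector; red squares, ANAC092 induced) minus the mean of the 3 empty vector arrays, on the log2 scale, for the 22 P450 probe sets; filled symbols are empty vector replicate 3 and induced replicate 2. Induced replicate 2 is the highest array for 9 probe sets, and for CYP71B5, CYP71B22, CYP71B24 and CYP71B26 all 3 induced arrays lie below all 3 controls.

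Bright P450 probe sets did not have induced replicate 2 as their highest array. CYP71B23 read 9.85, 10.18 and 10.57 on the empty vector arrays and 10.14, 10.11 and 10.23 on the ANAC092 induced arrays. Here the controls were spread more widely than the induced arrays, and the latter lay among them. The change was -0.04, and 0.14 without empty vector replicate 3. CYP71B6 read 10.01, 10.05 and 9.95 on the controls and 10.10, 9.71 and 9.94 on the induced arrays, again overlapping, with a change of -0.09. There induced replicate 2 was the lowest array, at -0.31 relative to the mean of replicates 1 and 3.

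CYP78A9, of a subfamily that sets the size of seeds and fruits in Arabidopsis, was at 0.00 (95% interval -0.23 to 0.24) after ANAC092 induction and at -0.01 (-0.25 to 0.23) after ANAC059 induction. CYP71B28 was at -0.05 in both, and CYP71B34 at -0.10 and 0.10. The 10 remaining P450 probe sets ranged from -0.12 to 0.21 after ANAC092 induction and from -0.17 to 0.14 after ANAC059 induction, and none of them passed in either. Across all 22, the median change after ANAC092 induction was -0.04, against -0.03 over all probe sets, and 13 were below 0, 59.1% against 56.8% of all. Among the 18 dim ones, 9 were below 0 (59.1% of all dim probe sets), 2 had induced arrays below all controls (10.1%) and 0 were called lower in limma (0.149%).

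In leaf 11, CYP71B23, CYP71B24, CYP71B26 and CYP71B34 of the chromosome 3 array read higher in the ANAC059 T-DNA line than in wild type, by 0.97 to 1.85. The other 7 members of that array lay between -0.32 and 0.15, with 2 at exactly 0. Of these 7, only CYP71B22 reached the median of all leaf values on any array. The rest were dim throughout, so their small differences do not show that they were unchanged. With 1 array per genotype there is no replicate check and no test. Of the 22 P450 probe sets, 3 were higher than wild type by 1 or more on the log2 scale and 0 were lower by as much, against 4.65% and 0.611% of all probe sets (5.26% in either direction). Restricted to probe sets whose higher value reached the leaf median, the counts were 3 and 0 of 10, against 8.18% and 1.14%. CYP71B34, counted as higher here, reached that median only in the ANAC059 line (5.88, against 4.76 in wild type). The filter thus rests on the values compared, and these counts add no separate support. In the ANAC092 T-DNA line the counts were 0 and 0, against 0.98% and 0.822% of all probe sets (1.8% in either direction), and 0 of 9 among those reaching the leaf median, against 1.87% and 1.61%.

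CYP71B23 read 7.51 in wild type, 9.36 in the ANAC059 line and 7.92 in the ANAC092 line. It was 3.60-fold higher in the ANAC059 line (log2 1.85), a difference larger than that of 99.3% of all probe sets, and 0.41 higher in the ANAC092 line. CYP71B24 read 7.37, 8.56 and 7.30 in the same order. It was 2.29-fold higher in the ANAC059 line (log2 1.19) and at -0.07 in the ANAC092 line.

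CYP71B34 read 4.76 in wild type, 5.88 in the ANAC059 line and 5.00 in the ANAC092 line, a difference of 1.12 for the ANAC059 line from a dim start. CYP71B26 read 7.32, 8.29 and 6.74. It was the P450 gene whose lines lay farthest on opposite sides of wild type, at 0.97 in the ANAC059 line and -0.58 in the ANAC092 line. CYP71B28, which lies on chromosome 1, read 7.82, 8.19 and 7.16, with the same order of genotypes and differences of 0.37 and -0.66.

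CYP71B22, which fell with CYP71B24 after ANAC059 induction, read 6.79 in wild type, 6.95 in the ANAC059 line and 6.97 in the ANAC092 line. The difference of 0.15 for the ANAC059 line became -0.01 with quantile normalization applied once more, so it has no settled direction. For CYP71B23, CYP71B24 and CYP71B34 the differences of that line were 1.79, 1.099 and 1.05 under the same setting. CYP71B23 thus read higher in the ANAC059 line while it overlapped its controls after ANAC059 induction, and CYP71B24 read lower after induction and higher in the insertion line.

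Outside that array, CYP71B28 was higher in the ANAC059 line, as given above, while CYP84A4, CYP78A9 and CYP71B5 read lower. CYP84A4 read 7.97 in wild type, 7.16 in the ANAC059 line and 7.75 in the ANAC092 line, a difference of -0.81 for the ANAC059 line. CYP78A9 read 6.18, 5.62 and 5.88, at -0.56 and -0.30. CYP71B5 read 7.21, 6.86 and 6.91, at -0.34 and -0.29.

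The lowest difference of the ANAC092 line was that of CYP71B6, the indole-3-acetonitrile enzyme. It read 10.39 in wild type, 10.21 in the ANAC059 line and 9.60 in the ANAC092 line. The ANAC092 line was 1.73-fold lower (log2 -0.79), and 1.71% of all probe sets had a difference as low or lower. Of the 10 P450 probe sets that reached the median of all leaf values (5.76) on some array, 7 were lower and 3 higher than wild type in the ANAC092 line, and 4 were lower and 6 higher in the ANAC059 line. Over all probe sets whose higher value reached that median, the median difference was 0 in each line. The share of all probe sets in each direction is not given here, so these counts are not a result about P450 genes.

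**Figure D4:**
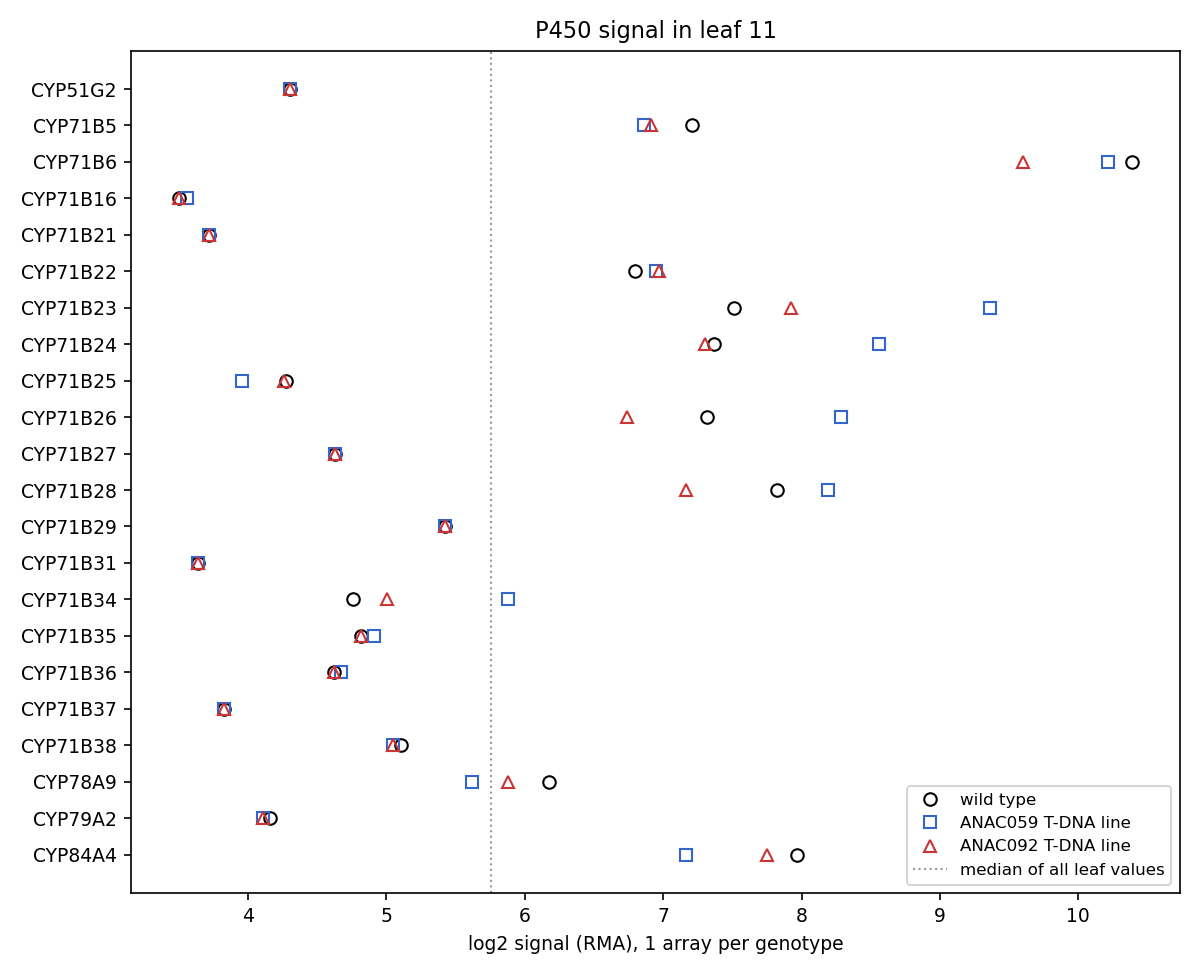
Log2 RMA signal of the 22 P450 probe sets in leaf 11 of wild type (circles), the ANAC059 T-DNA line (squares) and the ANAC092 T-DNA line (triangles), with 1 array each; the dotted line is the median of all leaf values, 5.76. CYP71B23, CYP71B24, CYP71B26 and CYP71B34 read higher in the ANAC059 line, and CYP71B6 reads lowest in the ANAC092 line. The 12 probe sets left of the line throughout have symbols nearly on top of each other, except CYP71B25 (-0.32 in the ANAC059 line).

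The other 12 P450 probe sets stayed below the leaf median on all 3 arrays, at 3.50 to 5.42. Their differences from wild type lay between -0.32 and 0.10 in the ANAC059 line and between -0.06 and 0.00 in the ANAC092 line. For 6 of the 22 the 3 arrays held exactly the same value, against 14.7% of all probe sets. At this end of the scale the leaf values carry little information on differences. CYP71B21, CYP71B27, CYP71B29, CYP71B31, CYP71B37 and CYP51G2 were these 6.

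Genes of the pathways that P450 enzymes serve were taken from 18 lists of 268 genes, members included. Of the genes that are not members, 8 had a probe set of their own under this annotation. In limma 0 of these 8 passed after either induction, against 2.23% of all probe sets after ANAC092 and 2.99% after ANAC059 induction. With so few genes this count does not describe the pathways. In phenylpropanoid synthesis the acyltransferase gene HCT was at 0.22 after ANAC092 induction and 0.38 after ANAC059 induction (limma adjusted p 0.638 and 0.110), and at -0.56 and -0.60 in leaves of the ANAC059 and ANAC092 lines. The dihydroflavonol reductase gene DFR was at 0.03 and -0.06 after the inductions. In the glucosinolate pathways the glucosyltransferase gene UGT74B1 was at -0.08 and 0.02 and the aminotransferase gene BCAT4 at 0.15 and 0.12.

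NOL, a chlorophyll b reductase gene of chlorophyll breakdown, was at 0.20 and 0.36 (limma adjusted p 0.645 and 0.0888). The lycopene cyclase gene LYC of carotenoid synthesis was at -0.10 and 0.11, the sterol isomerase gene CPI1 at -0.28 and 0.08, and the glutathione transferase gene GSTU25 at -0.27 and 0.55, with adjusted p 0.710 and 0.278 in limma. The lists of abscisic acid, brassinosteroid, gibberellin, jasmonate, cytokinin with strigolactone, cutin with suberin and wax, and triterpene genes, and those of P450 electron donors and of P450 genes under other symbols, had 0 genes with a probe set named for them alone.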

How the data were processed

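Each array's deposited log2 signals had been normalized by the authors with RMA, per the labels, in 3 groups of arrays (6, 4 and 3), and comparisons stay within such a set. The table held 22810 probe sets, and 64 controls were left out. Probe sets were named from the platform annotation, and loci and neighbours from the RefSeq genes of TAIR10.1.

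The induction effect was fitted with limma 3.58.1 under R 4.3.3 (group as the only term, two-sided, Benjamini-Hochberg adjustment over all 22746 probe sets). The leaf arrays have no replicates. Precision is limited by the number of arrays. The members and gene lists were chosen with earlier results of these data known. LCR, entered in the lists for another P450 gene, was removed because the gene table gives it as LEAF CURLING RESPONSIVENESS.

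Genes given singly were the called members, the 5 highest and 5 lowest changes among members whose groups did not overlap, and in each leaf line the 8 highest and 8 lowest differences among members reaching the leaf median, which made 12; of other list genes, called ones or the 2 with the largest change. DFR and CYP71B21 were named outside this rule. Alternatives were another quantile normalization, removal of dim probe sets, a variance trend, a replicate block, single arrays left out, and other choices of the ANAC092 arrays.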

Additional observations from a re-analysis of the deposited data

Results flagged for a closer look

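A P450 probe set outside the 22 had ANAC092 induced arrays that all lay above their controls, as did 7.98% of all probe sets. It is annotated to 2 P450 genes, CYP71B20 and CYP71B19, and cannot tell them apart. Both belong to CYP71B, so not every CYP71B probe set with separate groups was lower after ANAC092 induction. It read 8.80, 8.64 and 8.56 on the empty vector arrays and 9.19, 9.18 and 9.12 on the ANAC092 induced arrays, a change of 0.50 ± 0.10 SE (limma adjusted p = 0.0612). After ANAC059 induction it was at -0.28 (limma adjusted p = 0.1604), and in leaf 11 it was at 0.20 in the ANAC059 line and -0.94 in the ANAC092 line. CYP718, also outside the 22, had induced arrays below all controls in both inductions, against 12.4% and 26.8% of all probe sets. Its changes were -0.35 after ANAC092 and -0.38 after ANAC059 induction (limma adjusted p 0.334 and 0.232). In the same order CYP71B30P was at -0.01 and -0.10, and a probe set shared by CYP79C2 and another gene at 0.22 and -0.08.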

How the results depend on the processing

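After ANAC092 induction the count of P450 calls was 0 in all alternatives but quantile normalization applied once more (1, CYP71B22). After ANAC059 induction it was 2 with quantile normalization and with a variance trend, 1 without dim probe sets (CYP71B24 was removed as dim), 0 with the replicate block and 0 to 1 without single arrays. Same-numbered arrays were not treated as pairs: their deviations correlated at -0.107, 0.271 and 0.0968 in the ANAC092 set and at 0.03 in the ANAC059 set, and not every array correlated best with its own number. With the block 0 of 22746 probe sets were called after ANAC059 induction, and CYP71B22 and CYP71B24 had limma adjusted p 0.0993 and 0.0806; after ANAC092 induction the block gave 0 P450 calls too. The leaf counts of 3 and 0 did not move. Over all probe sets, the 507 calls after ANAC092 induction became 209 to 787 without single arrays and 242 with induced replicates 1 and 3 averaged. The 679 after ANAC059 induction became 161 to 444 without single arrays.

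Changes that turned direction were all of genes that did not pass. Without single arrays after ANAC092 induction these ranged from -0.14 to 0.31 (CYP71B16), -0.22 to 0.14 (CYP71B23), -0.13 to 0.078 (CYP71B28), -0.18 to 0.014 (CYP71B6), -0.042 to 0.051 (CYP78A9), -0.10 to 0.21 (CYP79A2) and -0.026 to 0.43 (CYP84A4). After ANAC059 induction they ranged from -0.10 to 0.10 (CYP71B23), -0.074 to 0.13 (CYP71B26), -0.16 to 0.065 (CYP71B28), -0.10 to 0.074 (CYP78A9) and -0.30 to 0.0048 (CYP84A4). With induced replicates 1 and 3 averaged CYP78A9 was at -0.021 after ANAC092 induction. With quantile normalization CYP71B26, CYP71B28 and CYP78A9 were at -0.032, 0.00048 and 0.074 after ANAC059 induction. That setting shifted the median of leaf probe sets reaching the leaf median by -0.11 in the ANAC059 line. Where a fit left 1 array in a group, its spread was taken from the other group.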
